A study of Mus musculus with 32 samples.

Results

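Many mouse genes end in a tandem 3′ UTR, in which a proximal and a distal polyadenylation site lie in the same last exon. The segment up to the proximal site is the core, shared by both mRNA forms, and the segment between the sites is the extension, present only in the long form. Here the 583 of 1189 annotated tandem 3′ UTR events whose extension spanned 700 bases or more were described, selected by annotated length alone and not by any measured value. The other 606 events had shorter extensions.

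The study depleted 7 SR proteins one at a time in P19 cells, a mouse embryonal carcinoma line, and sequenced poly(A)+ RNA from whole-cell lysates and from the cytoplasm. The knockdown cells (SRSF1 knockdown through SRSF7 knockdown, 1 protein each) were transfected for 36 h with esiRNAs, pools of short RNAs made by endonuclease digestion, and the control cells received an esiRNA against GFP in the same way. Each of the 16 groups (8 transfections in each of 2 fractions) had 2 libraries, A and B, described in the methods as biological replicates, which gave 32 single-end libraries in all. All groups share the P19 background and the transfection procedure, and no line or animal differs between them.

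SR proteins are RNA-binding proteins with arginine- and serine-rich domains that act in splicing, and several of them also shuttle to the cytoplasm and act in mRNA export. The choice between tandem sites decides how much 3′ UTR an mRNA carries, and with it which microRNA sites and protein-binding sites are available. Cleavage is directed by a hexamer, usually AATAAA or its variant ATTAAA, a short distance upstream of the cut. The comparison of each knockdown with the GFP control asks which of these proteins shifts the use of the proximal and the distal site, and the comparison of fractions asks whether the shift is seen in exported mRNA.

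The shortest of the extensions had 701 bases, and they had a median of 1346 and quartiles of 972 and 1945, against a median of 684 for all 1189 events. At the length limit, the extensions of Srebf2 (701 bases) and Prkrir (702 bases) were just inside, and those of Bnip3 and Glyr1 (697 bases each) just outside. The events belonged to 582 genes, with 1 event that overlapped no annotated gene, and 302 lay on the plus and 281 on the minus strand. Of the 583 extensions, 572 were at least 90% exonic in the annotation used, 14 held coding sequence, 56 overlapped an exon of a gene on the opposite strand and 3 an exon of another gene on the same strand. Among the longest were those of Tmod2 (8195 bases), Nufip2 (7084, only 26.2% exonic in that annotation), Zmat3 (5902) and Samd8 (5423, mm9 chr14:22612522-22617944, plus strand).

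The last 30 transcribed bases before the proximal and the distal site are shown for 8 events on which the results below turn, from NCBIM37 (mm9), written 5′ to 3′ on the transcribed strand, with the hexamer in capitals. They were chosen after the values were seen.
Tmem30a, proximal, chr9:79618604-79618633, minus strand: agactataAATAAAacacttcatcattttc
Tmem30a, distal, chr9:79616746-79616775, minus strand: ttgtattAATAAAcgtgaacaaaattaatc
Rictor, proximal, chr15:6747381-6747410, plus strand: acaggaATTAAAcatatatgcaaatttgta
Rictor, distal, chr15:6750372-6750401, plus strand: tgttAATAAAatgtacttaaaattcttaaa
Tbpl1, proximal, chr10:22425178-22425207, minus strand: tgtgcacaAATAAAagtttggaaaagatct
Tbpl1, distal, chr10:22423686-22423715, minus strand: atataAATAAAaactgtgaatatatacatc
Ikzf5, proximal, chr7:138533880-138533909, minus strand: ctggcaaaacAATAAAacattgtcacttac
Ikzf5, distal, chr7:138532161-138532190, minus strand: attAATAAAaagtaacactttctaatgact
Mapkap1, proximal, chr2:34479404-34479433, plus strand: tctttccttttAATAAAcaggtatactctt
Mapkap1, distal, chr2:34480440-34480469, plus strand: taaaatactaaAATAAAagtcataaatacc
Samd8, proximal, chr14:22612492-22612521, plus strand: ttaaatatacagtagttatggaatgaaaat
Samd8, distal, chr14:22617915-22617944, plus strand: aaacactaaaaAATAAAgcatttgaaagtt
Glrx2, proximal, chr1:145593875-145593904, plus strand: ataatgaacAATAAAttgccctggaccctt
Glrx2, distal, chr1:145596779-145596808, plus strand: aagaAATAAActcttccaatgattgcttaa
Arl4a, proximal, chr12:40762406-40762435, minus strand: ttagtgaAATAAAactttgaagagtgtatg
Arl4a, distal, chr12:40759876-40759905, minus strand: tcttcaaAATAAAttaatgcaacttggagt

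AATAAA or ATTAAA, searched on the transcribed strand only, occurred in the last 40 bases before the proximal site in 310 of the 583 long-extension events (53.2%), and before the distal site in 503 (86.3%). Among all 1189 events the shares were 58.2% at the proximal and 82.5% at the distal site. AATAAA alone was found before the proximal site of 233 and the distal site of 420 long-extension events, against 42.9% and 64.9% of all events. Samd8 had neither hexamer in the proximal window. These are counts of letters in the window and no test was run on them.

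The deposited whole-cell and cytoplasmic gene tables first served to check the labels. Scaled Srsf3 signal was 7145 and 4440 in the SRSF3 knockdown libraries A and B of whole cells, against 8695 and 8161 in the control (log2 change −0.59 ± 0.24 SE, adjusted p = 0.121), so the decline was smaller in library A than in library B. Srsf7 signal was 1854 and 2121 in SRSF7 knockdown and 3940 and 4091 in control whole cells (log2 change −1.01, adjusted p = 0.368). Both knockdown libraries lay below both controls in whole cells for each of the 7 targets, with log2 changes between −0.59 and −1.05, but only Srsf1 passed limma's adjusted threshold (log2 change −0.93, adjusted p = 0.0233). In the cytoplasm the groups overlapped for Srsf2, with 3984 and 2765 after its own knockdown and 5036 and 3729 in the control. Pou5f1 (23944 to 113255), Lin28a (18128 to 45766), Sall4 (2134 to 4154) and Nanog (1255 to 4314), markers of pluripotent cells, were high in all 32 libraries, whereas Zfp42 (2.65 to 43.8) was low. The summed signal of the 8 listed P19 markers was 52021 and 50830 in SRSF3 knockdown and 64677 and 65076 in control whole cells, and 101105 and 115012 in SRSF3 knockdown and 135542 and 144486 in control cytoplasm. Of the 8, Lin28a fell in whole cells after SRSF3 knockdown (log2 change −0.39, adjusted p = 0.0289), and Pou5f1 had log2 changes of −0.37 in whole cells and −0.44 in the cytoplasm (adjusted p = 0.177 and 0.202). The part of these markers in the results below was not tested. Of the markers of other cell types, the neuronal tubulin gene Tubb3 was also high (856 to 5818), while Ptprc of blood cells reached 4.39 at most, and the part of such cells in the results was not tested. In bulk RNA, fewer cells of a type and less RNA per cell cannot be told apart. The libraries held between 38874542 and 72741730 reads assigned to exon bins. No source used here gives the strand setting of the library kit, so that reads of an overlapping gene on the opposite strand cannot be told apart.

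For each event the authors had estimated with MISO the share of mRNAs that carry the extension, from the reads of the A and B libraries pooled. There was thus 1 value per group with a credible interval that covers counting error only, and no replicate spread. An event was tested where it had at least 20 reads in both groups, and called changed where the share moved by at least 20 percentage points and the deposited intervals did not overlap. Of the 583 events, 551 met the read minimum in all 14 comparisons and 2 in none.

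By the MISO shares, most of these genes used mainly the distal site in control cells. The median share of the long form was 91.0% in whole cells (quartiles 68.0% and 98.0%, 576 events) and 92.0% in the cytoplasm (65.5% and 99.0%, 571 events). Shares of 90% or more were estimated for 308 events in whole cells and 309 in the cytoplasm. Events with shorter extensions had medians of 61.0% in whole cells and 63.0% in the cytoplasm. The exon-bin signal described below covers 90 of the long-extension events in whole cells and 88 in the cytoplasm. There the control median of the extension's signal per base was 43.6% and 38.1% of the core's. For Derl2 and Rngtt below, control coverage was also lower than the share, while the control libraries of Ikzf5 in the cytoplasm lay on both sides of it. The reason was not tested.

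After SRSF3 knockdown the long form lost share in more events than it gained, and more events were called in the cytoplasm than in whole cells. In whole cells 14 of 565 long-extension events were called lower (2.48%) and 1 higher, against 1.65% lower and 1.90% in either direction among all events. In the cytoplasm 34 of 569 were called lower (5.98%) and none higher, against 3.77% lower and 3.95% in either direction among all events. The mean change in share was −3.71 points in whole cells and −5.47 points in the cytoplasm, with medians of −1 and −2. Shorter extensions had means of −1.35 and −2.72 points, with 5 and 10 called lower and 2 higher in each fraction. No test of the difference between long and shorter extensions was run, because replicates were pooled. In control cells a longer extension came with a higher starting share, so that these groups also differed in how far the share could fall. Mean changes of both groups by starting share are given below.

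**Figure D1:**
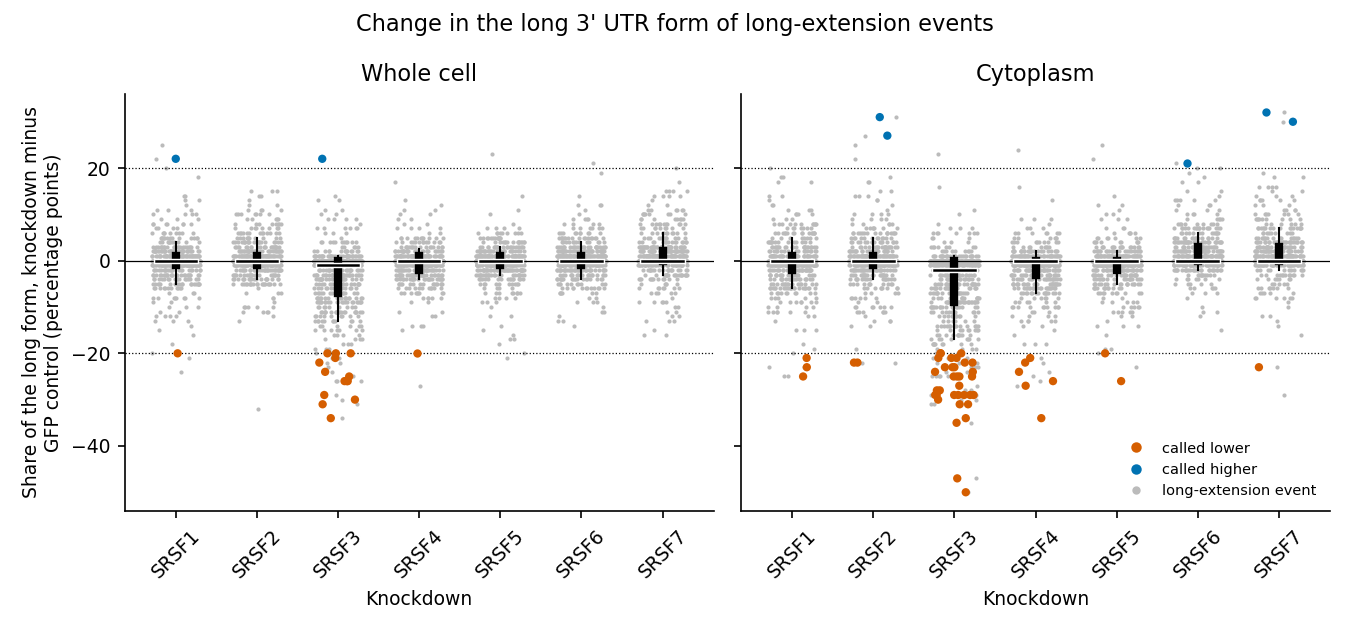
Change in the share of the long form (percentage points, knockdown minus GFP control) of long-extension events for each of the 7 knockdowns, in whole cells and in the cytoplasm; thick bars span the quartiles, thin bars the 10th to 90th percentiles, lines mark the medians, and dots mark events called lower (orange) or higher (blue) past the dotted lines at 20 points. SRSF3 knockdown has the most events called lower, 14 in whole cells and 34 in the cytoplasm.

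With a limit of 10 points in place of 20, 71 whole-cell events were lower after SRSF3 knockdown and 4 higher (12.6% lower, against 8.31% of all events). In the cytoplasm 113 were lower (19.9%, against 12.5% of all events) and none higher. SRSF7 knockdown moved events the other way at this limit, with 18 higher and 1 lower in whole cells (3.14% higher, against 2.74% of all events) and 21 higher and 1 lower in the cytoplasm (3.68% higher, against 3.94% of all events). For SRSF7 the share among long extensions was thus near that of all events. Its mean change was 0.949 points in whole cells and 1.37 points in the cytoplasm for long extensions, against 1.96 and 2.31 points for shorter ones.

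Some of the events that lost most share after SRSF3 knockdown are named here after their values were seen, and all in the cytoplasm unless stated. Tmem30a, which encodes a subunit of phospholipid flippases, had a long-form share of 46% after knockdown (interval 41 to 51, 447 reads) and 96% in the control (90 to 100, 260 reads). Rictor, a subunit of the mTORC2 kinase complex, had 51% after knockdown (43 to 59, 253 reads) and 98% in the control (92 to 100, 173 reads). In whole cells Tmem30a had 79% after knockdown and 97% in the control, and Rictor 86% and 98%, so that neither was called there. By these shares, the mRNA of both genes was almost wholly in the long form in control cells. Next in size were Ccser2, with 62% after SRSF3 knockdown and 97% in the control, and Nol4l, with 55% and 89%. Nol4l was called lower in the cytoplasm in 5 of the knockdowns, against the same control value.

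Further genes with a long form above 90% in the control showed the same direction in the cytoplasm. The zinc exporter gene Slc30a1 had 67% after SRSF3 knockdown and 98% in the control, the small GTPase gene Rab14 71% and 100%, and Ikzf5, an Ikaros-family zinc finger gene, 66% and 97%. For Rngtt, which encodes the mRNA capping enzyme, the values were 65% after knockdown and 95% in the control, and for Cdk19, a Mediator kinase gene, 66% and 95%. By these estimates the genes kept the long form as the more frequent one after knockdown. The exon-bin coverage of the extension given below for Rngtt and Ikzf5 after knockdown was lower than these shares. The order of the forms thus rests on the MISO shares alone. Among genes that used both sites in the control, Sgms1, a sphingomyelin synthase gene, had 41% after knockdown and 70% in the control. Derl2, which acts in the degradation of misfolded proteins of the endoplasmic reticulum, had 23% and 48%, and Tbpl1, encoding a relative of the TATA-binding protein, 54% and 82%.

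In whole cells the largest loss was in Cdk19, with 59% after SRSF3 knockdown and 93% in the control. Wnk1, a kinase gene of ion transport, had 73% after knockdown from 7391 reads and 99% in the control from 9730 reads, the deepest coverage quoted here. The nucleolar protein gene Nolc1 had 43% after knockdown and 68% in the control, and Abhd5, a coactivator of a triglyceride lipase, 63% and 85%. The single event called higher was Slc35f6, with 92% after knockdown and 70% in the control. Gsk3b, a kinase gene that the study had picked on these samples, had 98% after knockdown and 100% in the control in whole cells, and 94% and 100% in the cytoplasm, and was not called.

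**Figure D2:**
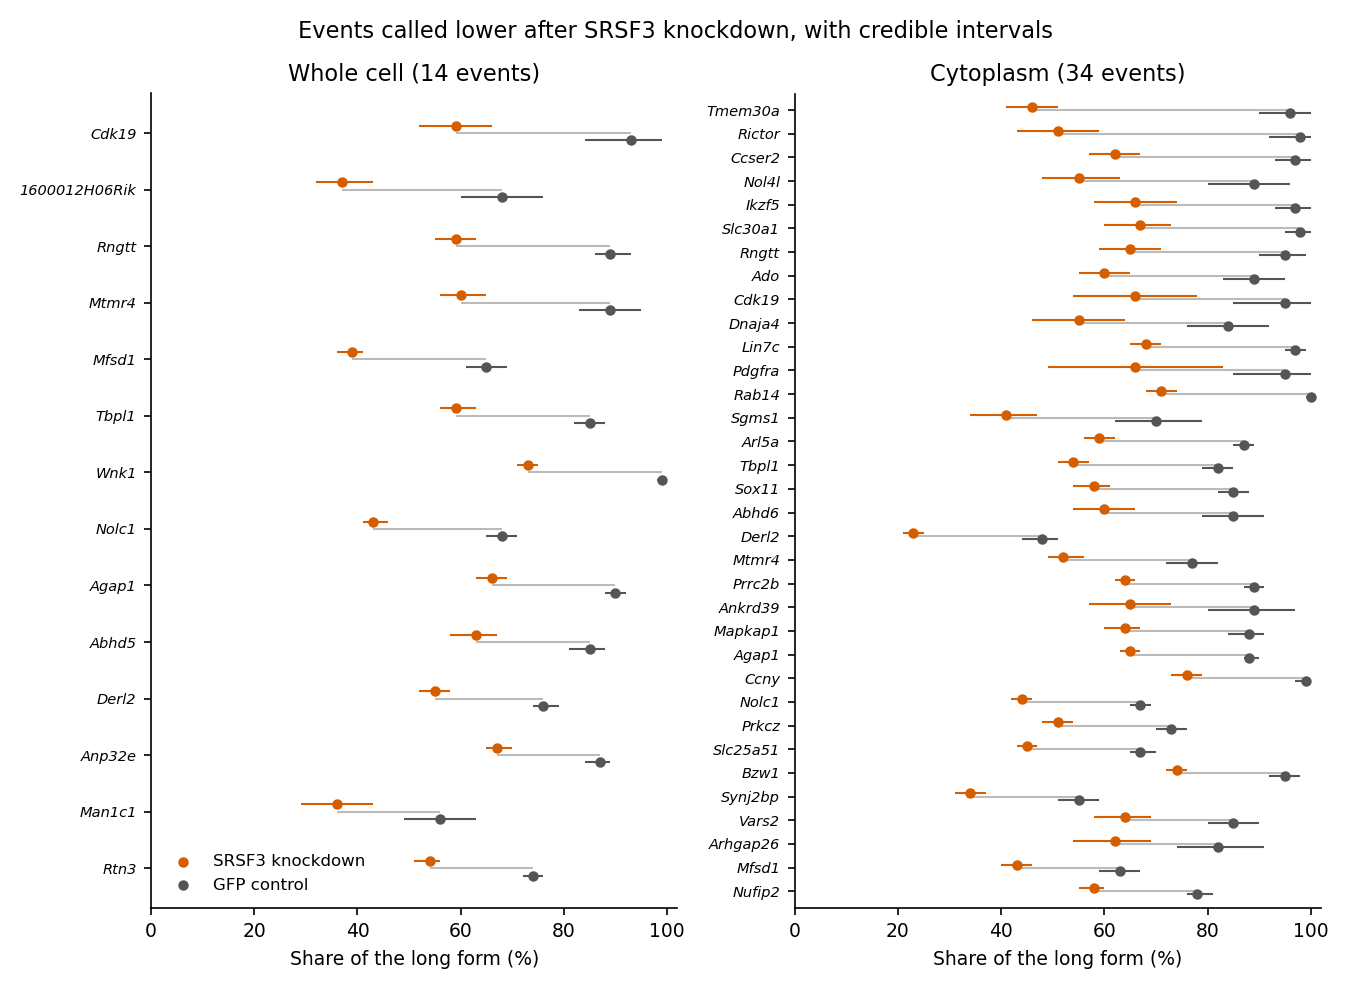
Share of the long form (%) of each long-extension event called lower after SRSF3 knockdown, 14 in whole cells and 34 in the cytoplasm, in SRSF3 knockdown cells (orange) and GFP control cells (grey); points are the authors' posterior means from pooled replicates and bars their credible intervals. Most control values lie above 60%, and the largest gap is that of Tmem30a in the cytoplasm, 46% after knockdown and 96% in the control.

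The calls of the fractions overlapped in 8 events, which are 57.1% of the whole-cell calls and 23.5% of the cytoplasmic calls, so that 40 events were called lower in at least 1 fraction. The overlap was not counted over all tandem events. All 14 events called in whole cells were below 0 in the cytoplasm (median −21.5 points, from −30 to −9). Of the 34 called in the cytoplasm, 33 were below 0 in whole cells (median −14.5, from −34 to 1). Most cytoplasmic calls were therefore events that moved in the same direction in whole cells but by less than 20 points.

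The 40 events carried AATAAA or ATTAAA before the proximal site in 33 cases (82.5%), against 53.2% of all long-extension events, and before the distal site in 35 (87.5%, against 86.3%). The 40 were selected for a lower share of the long form. The long-extension events as a whole include 34, described below, that could not be called. These shares are therefore a description, and no test was run on them. AATAAA alone was found before the proximal site in 25 of the 40 (62.5%) and before the distal site in 30. Tmem30a, Tbpl1, Ikzf5 and Mapkap1 in the sequences above have AATAAA at both ends, while Rictor has ATTAAA at the proximal and AATAAA at the distal end. Of the 40, 6 overlapped an exon on the opposite strand within the extension.

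Within the long-extension events the cytoplasmic loss after SRSF3 knockdown was larger in the longest extensions. Of 156 cytoplasmic events with extensions of 700 to under 1000 bases, 3.21% were called lower, with a mean change of −4.69 points. For 280 events of 1000 to under 2000 bases the share called was 5.71% and the mean −5.02 points, and for 133 of 2000 bases or more it was 9.77% and −7.35 points. In whole cells the same classes had 1.30%, 3.58% and 1.52% called lower, with means of −3.21, −4.08 and −3.52 points, so that no such order was seen there. Across long-extension events the rank correlation of the change with extension length was weak (Spearman's rho −0.08 in whole cells and −0.11 in the cytoplasm), as a description over events that share the same libraries.

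The change also differed with the starting share. Of 168 long-extension events with a control share of 50% to 90% in the cytoplasm, 21 were called lower after SRSF3 knockdown (12.5%), with a mean change of −8.83 points. Of 308 events with a control share of 90% or more, 12 were called lower, with a mean of −4.24 points, and of 79 with 10% to 50%, 1 was called lower, with a mean of −4.44 points. In whole cells 11 of 192 events with a control share of 50% to 90% were called lower (mean −6.01 points) and 3 of 305 at 90% or more (mean −2.53 points). Shorter extensions with a control share of 50% to 90% had means of −3.30 points in whole cells and −4.17 points in the cytoplasm. At 90% or more their means were −0.889 and −2.66 points. The difference from long extensions within a class was not tested. The control value enters both the class and the change, so that these counts and means are a description.

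A group of 34 long-extension events could not show a change in this measure. Their annotated core was 10 to 73 bases long, shorter than the reads, which the methods give as 75 or 85 bases. Of the 33 that met the read minimum, every estimated share lay between 48% and 52% in every group, no change exceeded 2 points, and no read was assigned to both forms, although they had a median of 930 reads in control whole cells. No other long-extension event kept all its shares between 45% and 55%. Without such events the median control share of long extensions was 92.0% in whole cells and 94.0% in the cytoplasm. The mean change after SRSF3 knockdown was then −3.93 points in whole cells (534 events) and −5.80 points in the cytoplasm (537 events). Shorter extensions without such events had means of −1.46 points in whole cells and −2.95 points in the cytoplasm. Their median control shares were then 65.0% and 70.0%.

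**Figure D3:**
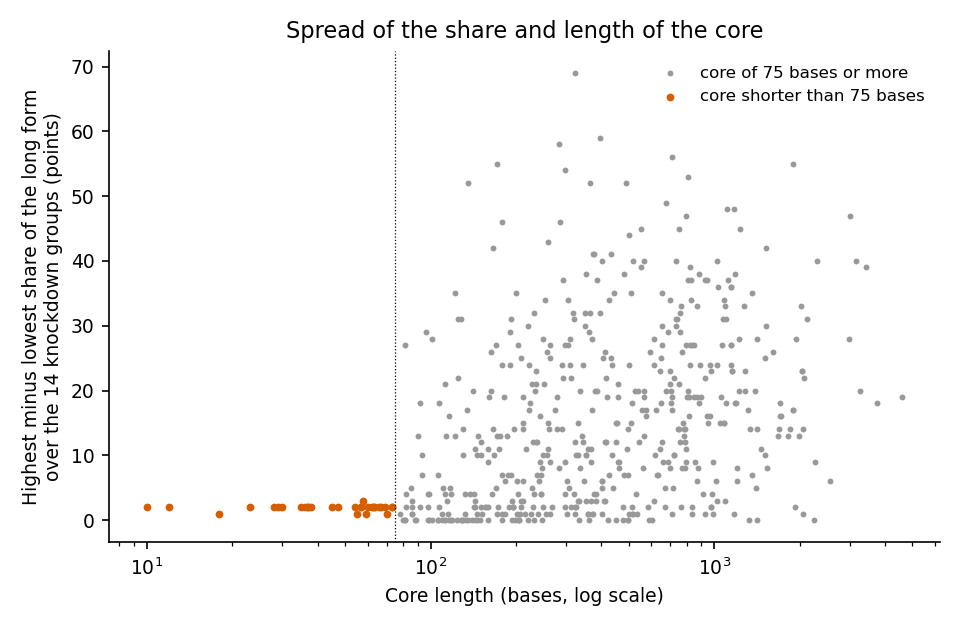
Highest minus lowest share of the long form (percentage points) over the 14 knockdown groups against the annotated length of the core (bases, log axis), 1 point per long-extension event, for 551 events. The 30 events with a core shorter than a read span 3 points at most, against a median of 13 and a highest value of 69 for the others.

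Because the shares came from pooled replicates, the difference between libraries was measured separately from the deposited exon-bin signal. For each library the signal in the bins of the extension was set against that in the adjoining upstream bins of the last exon, and log2((extension + 1)/(core + 1)) was compared by limma with trend over the 16 libraries of a fraction, with Benjamini-Hochberg adjustment over all tandem events tested. Bins could be matched to 91 of the 583 long-extension events, of which 90 in whole cells and 88 in the cytoplasm passed the filter on low signal (mean of 20 over the libraries). The results below therefore describe those events only. Relative coverage below is the extension's signal per base as a percent of the core's.

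SRSF3 knockdown lowered the ratio in 25 of 90 long-extension events in whole cells (27.8%) and raised it in 2, where 17.9% of all 196 tandem events tested passed in either direction and 16.8% were lower. In the cytoplasm it lowered the ratio in 28 of 88 (31.8%) and raised it in none, where 17.0% of all 194 passed and 17.0% were lower. The median log2 change was −0.26 in whole cells and −0.45 in the cytoplasm, against −0.16 and −0.27 over all tandem events. Values were below 0 for 73 of 90 events in whole cells and 79 of 88 in the cytoplasm. At an unadjusted p of 0.05 limma had 1 cytoplasmic event higher, and edgeR on recovered reads had 28 lower and 2 higher in whole cells and 32 lower and none higher in the cytoplasm. Both SRSF3 knockdown libraries lay below both controls in 52 of 90 events in whole cells (57.8%, against 43.9% of all tandem events tested) and 54 of 88 in the cytoplasm (61.4%, against 46.4%). They lay above both controls in 6 and 4, against 23 of 196 and 15 of 194 among all tandem events tested. Leaving out SRSF3 knockdown library A, in which Srsf3 itself had declined less, left 10 lower and none higher in whole cells and 18 lower in the cytoplasm, and leaving out control library B left 14 lower and 2 higher in whole cells and 17 lower in the cytoplasm. A fit of only the 4 whole-cell libraries compared called none, while that of the 4 cytoplasmic libraries called 23 lower and 1 higher.

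**Figure D4:**
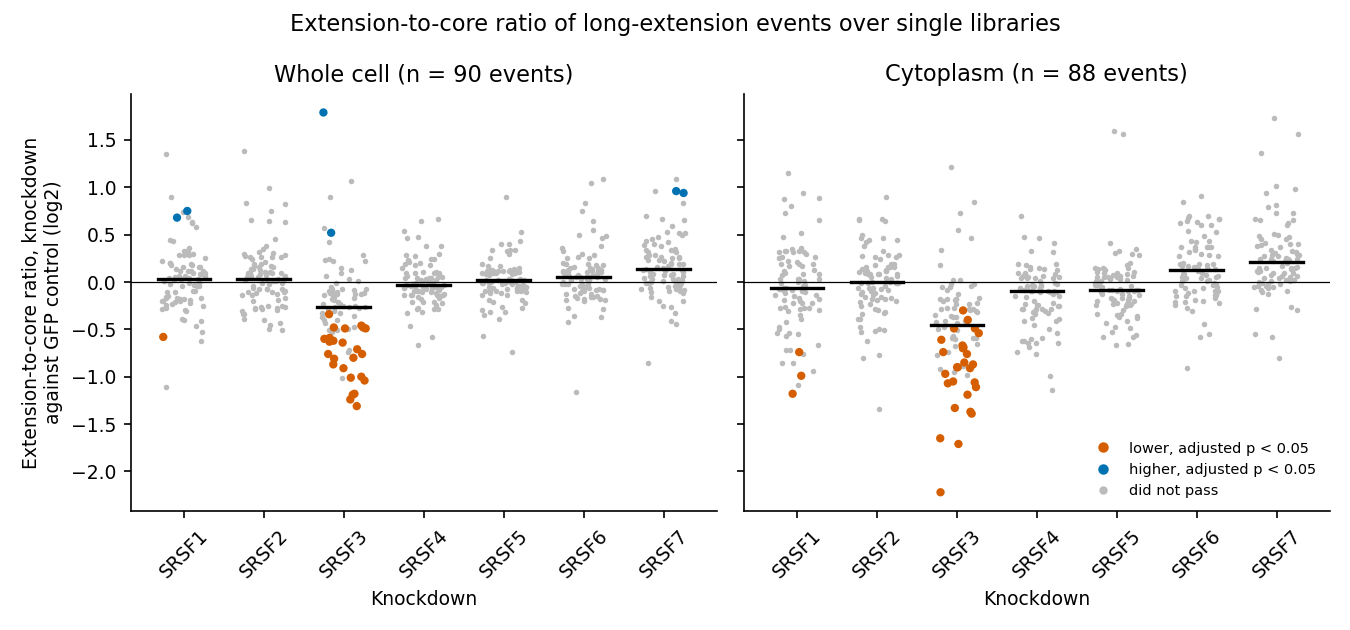
log2 change of the extension-to-core ratio (knockdown over GFP control) of the long-extension events with matched bins, for each of the 7 knockdowns, in whole cells (90 events) and the cytoplasm (88 events); lines mark medians and coloured dots the events past limma's adjusted threshold. The SRSF3 medians lie below 0 (−0.26 and −0.45) and the SRSF7 medians above it (0.13 and 0.21).

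In 19 events the ratio was lower after SRSF3 knockdown in both fractions, and in 34 in at least 1. These 2 counts were not made over all tandem events. The 19 included Tbpl1, Rngtt, Derl2, Ikzf5 and Mapkap1, which encodes an mTORC2 subunit. They also included Cdc6, a replication licensing gene, Kpna6, an importin gene, Mtmr4, a phosphoinositide phosphatase gene, and Ddx5, an RNA helicase gene. All 6 events called lower by MISO in whole cells that could be tested were lower here, and 7 of 8 in the cytoplasm. These measures rest on the same reads, so that the overlap is not independent evidence.

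Tbpl1 (extension chr10:22423686-22425177, minus strand, overlapping an exon of Slc2a12 on the opposite strand) had a relative extension coverage of 12.8% and 21.0% in SRSF3 knockdown whole cells, against 35.3% and 47.0% in the control. The groups did not overlap (log2 change of the ratio −1.31 ± 0.20 SE, adjusted p = 9.15e-04). The core signal was 741 and 486 after knockdown and 445 and 382 in the control, and the extension signal 276 and 297 after knockdown and 458 and 525 in the control. In the cytoplasm the relative coverage was 12% and 16.5% after knockdown and 34.9% and 35.8% in the control (log2 change −1.33 ± 0.21, adjusted p = 0.00165). Tbpl1 thus had less extension and more core in the knockdown in whole cells.

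Rngtt (chr4:33587892-33589585, plus strand) had 12.1% and 14.6% in SRSF3 knockdown whole cells and 29.6% and 33.5% in the control (log2 change −1.24 ± 0.17, adjusted p = 5.92e-04). In the cytoplasm it had 13.9% and 24.8% after knockdown and 42.7% and 55.7% in the control (log2 change −1.39 ± 0.32, adjusted p = 0.00852). The groups were apart in both fractions, but the cytoplasmic knockdown libraries differed more from each other, and that call was lost without SRSF3 knockdown library A or control library B.

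Derl2 (chr11:70820942-70823425, minus strand) had 6.6% and 10.4% in SRSF3 knockdown whole cells and 18.9% in each control library (log2 change −1.19 ± 0.17, adjusted p = 6.84e-04). In the cytoplasm it had 1.82% and 2.66% after knockdown and 7.29% and 7.17% in the control (log2 change −1.71 ± 0.20, adjusted p = 2.96e-04). Cytoplasmic core signal of Derl2 was 1413 and 953 after knockdown and 583 and 550 in the control, while its extension signal was 129 and 127 after knockdown and 214 and 198 in the control. The distance between the groups thus came from both segments.

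Ikzf5 (chr7:138532161-138533879, minus strand) showed the largest cytoplasmic change among these events after those of Samd8 and Derl2. Its relative coverage there was 33.4% and 39.5% after SRSF3 knockdown and 96.1% and 135% in the control (log2 change −1.65 ± 0.30, adjusted p = 0.00327). In whole cells it was 33% and 36.3% after knockdown and 49.5% and 54.9% in the control (log2 change −0.59 ± 0.15, adjusted p = 0.0191). The whole-cell extension signal overlapped between the groups (221 and 194 after knockdown, 214 and 245 in the control), whereas the core signal did not (867 and 692 after knockdown, 559 and 576 in the control).

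Samd8, a relative of the sphingomyelin synthases with one of the longest extensions, had 10.1% and 9.52% in SRSF3 knockdown cytoplasm and 48.1% and 43.4% in the control. This was the largest cytoplasmic fall (log2 change −2.22 ± 0.25, adjusted p = 2.96e-04). In whole cells the values were 29.9% and 39.4% after knockdown and 48.7% and 65.0% in the control (log2 change −0.71 ± 0.20, adjusted p = 0.0299). The cytoplasmic core signal was 194 and 139 after knockdown and 50.1 and 48.6 in the control, so that the fall came in part from more core signal. The core of this event is shorter than a read, and the cytoplasmic share of the long form was estimated at 50% after knockdown and 51% in control cells, so that the change was seen only in the per-base signal.

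Of the remaining named events, Cdc6 had 3.79% and 5.94% in SRSF3 knockdown whole cells and 9.86% and 9.15% in the control (log2 change −1.0 ± 0.17, adjusted p = 0.00138), with a cytoplasmic log2 change of −1.06 ± 0.16. Fam49b had 4.71% and 4.89% after knockdown and 9.36% and 8.20% in the control (log2 change −0.87 ± 0.10, adjusted p = 2.23e-04). For Mapkap1 the values were 16.9% and 28.8% after knockdown and 36.4% and 47.5% in the control (log2 change −0.91 ± 0.22, adjusted p = 0.0128). In all of these events both knockdown libraries were below both controls. The Mapkap1 call was lost without SRSF3 knockdown library A (log2 change −0.53, adjusted p = 0.154) and without control library B (−0.72, adjusted p = 0.121), and the cytoplasmic Fam49b call without SRSF3 knockdown library B (−0.84, adjusted p = 0.0521).

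Abhd5 showed a whole-cell log2 change of −1.18 ± 0.22 after SRSF3 knockdown (adjusted p = 0.00299), with 11% and 14.8% after knockdown and 30% and 27.6% in the control. Kpna6 had 75.8% and 69.4% in SRSF3 knockdown cytoplasm and 160% and 172% in the control (log2 change −1.19 ± 0.16, adjusted p = 6.20e-04). 1600012H06Rik, whose extension overlaps Phf10 on the opposite strand, had 12.9% and 20% in SRSF3 knockdown whole cells and 33.9% and 32% in the control (log2 change −1.04 ± 0.20, adjusted p = 0.00423). That call was lost without SRSF3 knockdown library A (−0.72, adjusted p = 0.0533). For 1600012H06Rik the extension signal overlapped between the groups (80 and 97.7 after knockdown, 71.0 and 87.8 in the control), and the core signal was 910 and 564 after knockdown and 331 and 432 in the control.

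Tpm2, a tropomyosin gene whose extension is 8.2% coding, fell in the cytoplasm after SRSF3 knockdown, with 155% and 170% after knockdown and 528% and 333% in the control (log2 change −1.37 ± 0.23, adjusted p = 0.00173). Its sign turned to a log2 change of 0.61 when all other bins of the gene were the reference in place of the adjoining ones. Elmo2, which acts in Rac activation, was 1 of the 2 events that rose in whole cells, with 10.1% and 3.45% after SRSF3 knockdown and 1.47% and 1.98% in the control (log2 change 1.79 ± 0.42, adjusted p = 0.0104). Without SRSF3 knockdown library A its log2 change was 1.02, and the call was lost there and without control library A. The other was Ikbkg (log2 change 0.52), named after its value was seen.

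**Figure D5:**
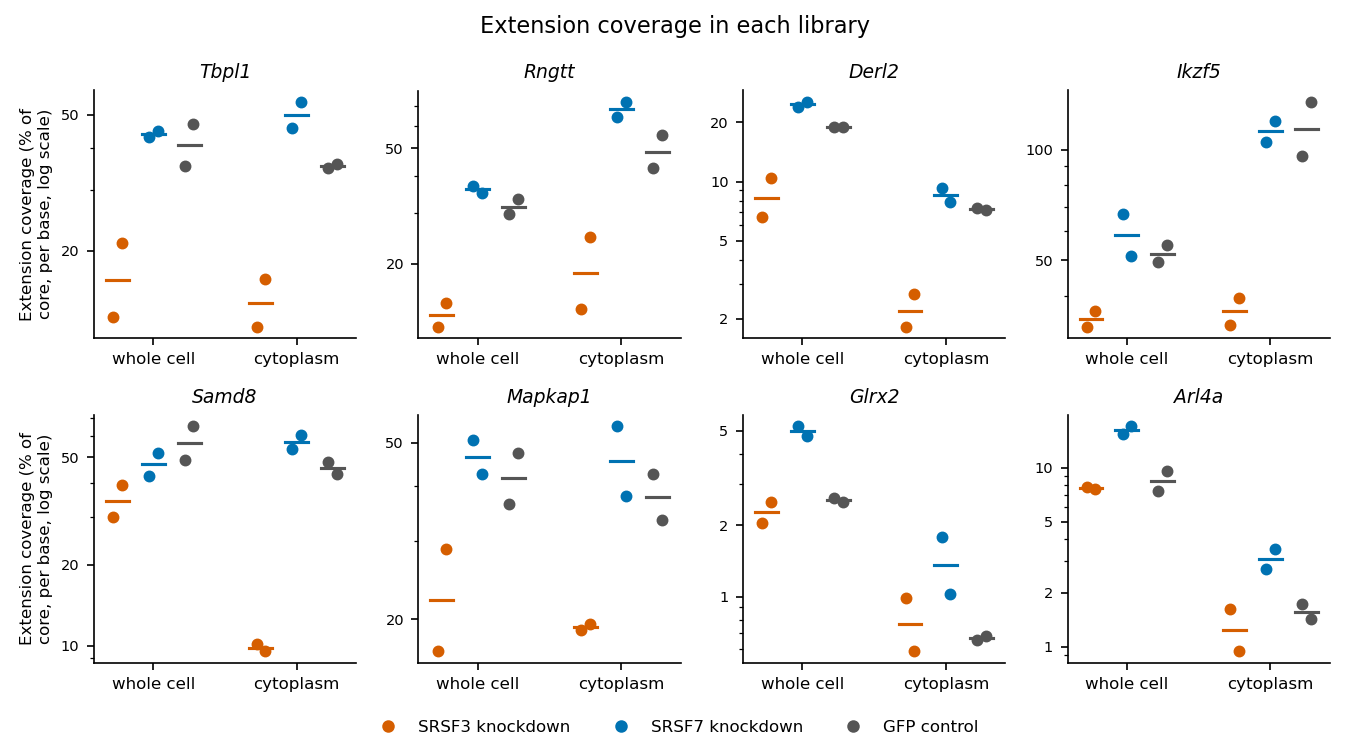
Extension coverage as a percent of core coverage per base (log axis) in each library of SRSF3 knockdown, SRSF7 knockdown and GFP control cells, in whole cells and the cytoplasm, for 8 long-extension events; each point is 1 library and the line the geometric mean. SRSF3 knockdown lies below the control for Tbpl1, Rngtt, Derl2, Ikzf5 and Samd8 in both fractions, and SRSF7 knockdown lies above it for Glrx2 and Arl4a in whole cells.

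After SRSF7 knockdown most ratios lay on the other side of 0, and few passed the test. The median log2 change of the long-extension events was 0.13 in whole cells and 0.21 in the cytoplasm, against 0.11 and 0.16 over all tandem events, with 63 of 90 and 70 of 88 long-extension events above 0. Both SRSF7 knockdown libraries lay above both controls in 35 of 90 events in whole cells (38.9%, against 35.2% of all tandem events tested) and 38 of 88 in the cytoplasm (43.2%, against 40.2%). They lay below both controls in 2 and 4, against 14 of 196 and 17 of 194 among all tandem events tested. In whole cells 2 events rose and none fell (1.02% of all events passed), with 18 past an unadjusted p of 0.05 and 7 changed with libraries paired by letter. In the cytoplasm none passed by limma (0.515% of all events did) or by edgeR on recovered reads, 15 were past an unadjusted p of 0.05, and 5 rose with libraries paired by letter.

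The 2 that rose were Arl4a and Glrx2. Arl4a, an ARF-like GTPase gene (chr12:40759876-40762405, minus strand), had 15.4% and 17.0% in SRSF7 knockdown whole cells and 7.44% and 9.57% in the control (log2 change 0.94 ± 0.16, adjusted p = 0.0115). Glrx2, a mitochondrial glutaredoxin gene (chr1:145593905-145596808, plus strand), had 5.22% and 4.76% after knockdown and 2.61% and 2.51% in the control (log2 change 0.96 ± 0.18, adjusted p = 0.0143). In both genes the extension signal was higher while the core overlapped. Arl4a extension signal was 298 and 272 after knockdown and 134 and 186 in the control, and that of Glrx2 172 and 169 after knockdown and 87.1 and 92.6 in the control. Each call was lost in fits without either SRSF7 knockdown library or without control library A, and that of Glrx2 also without control library B. In the cytoplasm the smallest p belonged to Smarce1, a chromatin remodelling subunit gene, with 89.6% and 73.6% after SRSF7 knockdown and 52.7% and 41.7% in the control (log2 change 0.79 ± 0.19, adjusted p = 0.0953, or 0.00883 with libraries paired by letter).

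Set against each other, the SRSF3 and SRSF7 knockdowns differed in more events than either did from the control. The ratio was lower in SRSF3 than in SRSF7 knockdown cells in 45 of 90 long-extension events in whole cells and higher in none (35.7% of all events differed, 34.7% lower). In the cytoplasm it was lower in 41 of 88 and higher in none (36.1% of all events differed, 36.1% lower). The median log2 difference was −0.43 in whole cells and −0.69 in the cytoplasm, with 74 of 90 and 83 of 88 events below 0. At an unadjusted p of 0.05 there was 1 event higher in whole cells and none in the cytoplasm, and edgeR called 1 higher in whole cells. Leaving out 1 library left 29 to 40 changed in whole cells, the fewest without SRSF3 knockdown library A, and 30 to 38 in the cytoplasm. This contrast does not use the shared GFP control. Tbpl1, for instance, had 42.9% and 44.9% relative coverage in SRSF7 knockdown whole cells, beside the 12.8% and 21.0% after SRSF3 knockdown, a log2 difference of −1.42 ± 0.20 (SRSF3 over SRSF7 knockdown).

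In the MISO shares no long-extension event was called lower after SRSF3 and higher after SRSF7 knockdown at 20 points. At 10 points 5 were in whole cells and 7 in the cytoplasm, and none the reverse, named here after their values were seen. This count was not made over all tandem events, so whether it differs for long extensions was not tested. Nolc1 was the only gene in both sets. Its share was 43% after SRSF3 knockdown, 78% after SRSF7 knockdown and 68% in control whole cells, and 44%, 80% and 67% in the same order in the cytoplasm. Faf1, which encodes a FAS-associated factor, had 53% after SRSF3 knockdown, 80% after SRSF7 knockdown and 66% in control whole cells. The other whole-cell genes were Eif1ax, Psmf1 and Rab3ip, and the other cytoplasmic ones Abhd5, Bub3, Kcmf1, Ppp2r5e, Usp47 and Yipf6. For Yipf6 the cytoplasmic shares were 66% after SRSF3 knockdown, 92% after SRSF7 knockdown and 82% in the control. The comparisons of both knockdowns share the control libraries.

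The events called lower after SRSF3 knockdown were chosen against the same control libraries that enter every other comparison. Their change after SRSF7 knockdown had a median of 2 points in whole cells (from −6 to 11, with 9 of 14 above 0) and 0 points in the cytoplasm (from −23 to 15, with 16 of 34 above 0). In whole cells and the cytoplasm the medians of the same events were −1.5 and −4 points after SRSF1 knockdown, −0.5 and −1.5 after SRSF2, −2 and −4 after SRSF4, −1 and −3 after SRSF5, and −1.5 and 1 after SRSF6 knockdown. The lowest value after SRSF7 knockdown was that of Sox11, a transcription factor gene, with 62% in SRSF7 knockdown and 58% in SRSF3 knockdown cytoplasm, against 85% in the control.

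The other SR proteins had few called long-extension events, but small cytoplasmic shifts leaned lower for SRSF4 and higher for SRSF6. The mean change there was 1.42 points after SRSF6 knockdown (259 events up, 108 down), against 1.01 over all events. After SRSF4 knockdown it was −1.68 points (116 up, 269 down), against −1.11. Both SRSF6 knockdown libraries lay above both controls in 30 of 88 ratios and below in 8 (all events: 61 and 21 of 194). Those of SRSF4 lay above in 6 and below in 30 (24 and 53). SRSF1 knockdown called 1 event higher and 1 lower of 567 in whole cells, against 0.346% of all events, and 3 lower of 565 in the cytoplasm, against 1.03%. The whole-cell events were Traip, a ubiquitin ligase gene, with 49% after knockdown and 27% in the control, and Cdk19, with 73% and 93%. The cytoplasmic ones were Ino80c, a chromatin remodelling subunit gene, with 72% after knockdown and 97% in the control, Nol4l (66% and 89%) and the exoribonuclease gene Eri1 (52% and 73%). In the ratio over libraries SRSF1 knockdown lowered 1 and raised 2 of 90 events in whole cells (4.08% of all events passed) and lowered 3 of 88 in the cytoplasm (3.09%), named here after their values were seen. In whole cells these were Sema6a, a semaphorin gene (log2 change −0.58, adjusted p = 0.0233), Guf1 (0.75, adjusted p = 0.0267) and Cdc6 (0.68, adjusted p = 0.0360). In the cytoplasm they were Tpm2 (−1.18) and Adar, which encodes an RNA-editing enzyme (−0.99; adjusted p = 0.0123 for both), and Kpna6 (−0.74, adjusted p = 0.0183). None of the 6 SRSF1 events passed in both fractions, and none passed in a fit of only the 4 libraries compared. With libraries paired by letter 10 events passed in each fraction.

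SRSF2 knockdown called no event of 570 in whole cells, against 0.172% of all events, and 2 higher and 2 lower of 566 in the cytoplasm, against 1.04%. The phosphodiesterase gene Pde8b had 98% after SRSF2 knockdown and 67% in control cytoplasm, from 43 and 47 reads, and Fads3, of the fatty acid desaturase family, 65% and 38%. Ankrd39 and Nol4l were the events called lower, each with 67% after SRSF2 knockdown and 89% in the control. SRSF4 knockdown called 1 lower of 575 in whole cells, against 0.171%, which was Nol4l (57% after knockdown and 77% in the control), and 6 lower of 569 in the cytoplasm, against 0.688%. Of the cytoplasmic ones, Fam107a had 58% after knockdown and 92% in the control from 78 and 87 reads, Zkscan1 had 45% and 72%, and Nol4l had 63% and 89%.

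SRSF5 knockdown called none of 575 in whole cells, against 0.171% of all events, and 2 lower of 569 in the cytoplasm, against 0.515%. SRSF6 knockdown called none of 576 in whole cells, against 0.342%, and 1 higher of 570 in the cytoplasm, against 0.343%, which was Lmbrd1, a gene of lysosomal vitamin B12 transport, with 70% after knockdown and 49% in the control. SRSF7 knockdown called none of 574 in whole cells, against 0.428%, and 2 higher and 1 lower of 571 in the cytoplasm, against 0.685%. Ints12, an Integrator subunit gene, had 92% after SRSF7 knockdown and 60% in the control, but from 39 and 20 reads, and Ptplb had 81% and 51%.

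Some cytoplasmic calls recurred across knockdowns. Nol4l was called lower in 5 cytoplasmic comparisons and Ankrd39 in 4, each against the same control value of 89%. Since all comparisons share the control libraries, a high control value enters each of them. In all, 51 distinct long-extension events were called in at least 1 of the 14 comparisons, a count not made over all tandem events.

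By the ratio over libraries limma called no long-extension event for SRSF2, SRSF4, SRSF5 or SRSF6 knockdown in either fraction (0% of all events). At an unadjusted p of 0.05 there were 4, 2, 2 and 10 such events in whole cells and 5, 6, 1 and 7 in the cytoplasm, in that order of proteins. With edgeR on recovered reads SRSF2 knockdown had 2 in whole cells and the other comparisons none. With libraries paired by letter limma called 3 for SRSF2 and 1 for SRSF6 in whole cells and 1 for SRSF6 in the cytoplasm.

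Between the fractions of control cells, long extensions were more often called lower than higher in the cytoplasm by MISO, with a median difference of 0 points. The ratio over libraries was near balance. By MISO 7 of 566 long-extension events were called higher in the cytoplasm (1.24%, against 3.29% of all events) and 30 lower (5.30%, against 3.12%). By the ratio over libraries 17 of 90 were lower and 13 higher, against 22 lower and 19 higher of all 197 events tested (20.8% passed). Of the 90, 47 were below 0 and 43 above, with a median log2 difference of −0.05. Leaving out 1 control library left 15 to 23 events called, with 9 lower and 6 higher without cytoplasmic library B, 12 and 8 without whole-cell library B, 14 and 7 without whole-cell library A, and 15 and 8 without cytoplasmic library A. Arl4a had 1.72% and 1.43% relative coverage in control cytoplasm and 7.44% and 9.57% in control whole cells (log2 difference −2.43, adjusted p = 5.18e-04). Glrx2 (−1.93) and Derl2 (−1.39) were also lower in the cytoplasm, while Syngr1 (1.46), Tpm2 (1.37), Sema6a (1.25) and Ikzf5 (1.13) were higher. The events of this comparison were named after their values were seen.

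The change after SRSF3 knockdown differed between the fractions in 1 long-extension event, Samd8 (0.508% of all events), and that after SRSF7 knockdown in none (0%), by limma and by edgeR, with 8 events for SRSF3 and 1 for SRSF7 past an unadjusted p of 0.05. In Samd8 the cytoplasmic change exceeded the whole-cell change by a log2 difference of −1.50 ± 0.33 (adjusted p = 0.0349). This call was lost with libraries paired by letter, without either cytoplasmic SRSF3 knockdown library, and without control library A of either fraction. The larger cytoplasmic counts for SRSF3 are therefore not shown to differ from those in whole cells for other single events.

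At the level of whole genes, SRSF3 knockdown changed genes with a long extension in both directions. In whole cells 46 of 580 such genes were higher (7.93%, against 5.89% of all genes) and 39 lower (6.72%, against 5.56%). In the cytoplasm 3 of 581 were higher and none lower, against 0.473% higher and 0.0683% lower among all genes. Gene-level counts depended on the libraries: with libraries paired by letter they were 125 higher and 119 lower in whole cells and 89 higher and 33 lower in the cytoplasm. Without SRSF3 knockdown library A they were 4 higher and 2 lower in whole cells, without its library B 86 and 57, without control library A 10 and 2, and without control library B 13 and 18. SRSF1 knockdown raised 2 and lowered 4 of these genes in whole cells (0.804% of all genes changed) and lowered 1 in the cytoplasm (0.0626%). SRSF7 knockdown changed none in whole cells (0.0162% of all genes) or in the cytoplasm (0%), with 25 higher and 8 lower in whole cells and 10 higher and 7 lower in the cytoplasm at an unadjusted p of 0.05. With libraries paired by letter 2 were higher in whole cells.

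The genes whose long form was called lower after SRSF3 knockdown had a median gene-level log2 change of 0.31 in whole cells (14 genes) and 0.49 in the cytoplasm (34 genes), against 0.04 and 0.11 for all genes with long extensions. Of these, Mfsd1 (log2 change 1.00, adjusted p = 0.0201) and 1600012H06Rik (0.57, adjusted p = 0.0313) rose in whole cells, and none of the 34 passed in the cytoplasm. Of 20 listed genes of the cleavage and polyadenylation machinery, 19 were in the tables. After SRSF3 knockdown Pcf11, a cleavage factor II gene (log2 change 0.83, adjusted p = 0.0169), and Cstf3, a subunit gene of the cleavage stimulation factor (0.77, adjusted p = 0.0478), were higher in whole cells (5.89% of all genes were higher and 5.56% lower), the other 17 did not pass (5 of the 19 were higher and 1 lower at an unadjusted p of 0.05), and none passed in the cytoplasm (2 were higher at an unadjusted p of 0.05). After SRSF7 knockdown none of the 19 passed in either fraction, by adjusted or by unadjusted p (limma).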

How the data were processed

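The deposited data were poly(A)+ RNA-seq of 7 SR protein knockdowns and a GFP control in P19 cells, from 2 fractions with 2 libraries each (32 libraries). The submitters' processing notes list TopHat2 (2.0.9, 2.0.10) with Bowtie2 2.1.0, as well as Cufflinks 2.1.1, CASAVA 1.8.2 and cutadapt, and the builds mm9 and mm10. The authors ran MISO on pooled replicates and deposited the share of the long form as a fraction with a credible interval, whose level no source used here gives, and read counts as text. Shares are printed here as percent. Read minimums used the read classes compatible with a form. The authors also deposited a normalized signal per library for exon bins and for genes. The deposited columns of the authors' comparisons (differences and Bayes factors, log2 fold changes, p-values and adjusted p-values of the exon-bin, gene and transcript tests) were not used.

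Bins were to be matched by the exact width of the extension, which found 20 long-extension events. The bins were therefore anchored on transcript ends with a tolerance of 30 bases (91 events, 199 in all), a change made after the data were examined. For 465 of the long-extension events no bin boundary lay within that distance of the proximal end. The core bins had a median length of 497 bases and can be longer than the annotated core. Dividing each deposited signal by its library's step gave whole reads for 100% of values, which edgeR used as an alternative. The gene signal gave no whole reads. limma 3.58.1 with trend (R 4.3.3) was the main test: on log2((extension + 1)/(core + 1)) over the 16 libraries of a fraction, and on log2(value + 1) after TMM scaling and filterByExpr in edgeR 4.0.16 for genes, with Benjamini-Hochberg adjusted p below 0.05. With 2 libraries a group, the p-values measure the spread between these libraries. Other steps used Python 3.11.15, numpy 2.4.6, pandas 2.3.3 and matplotlib 3.10.9. Scripts were tested on simulated data. Sequences came from NCBIM37 and annotation from GENCODE vM1.

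Same-lettered libraries deviated together in the gene tables in all 28 pairs of groups of each fraction (correlations of 0.24 to 0.56 in whole cells and 0.27 to 0.71 in the cytoplasm), but in the ratios exceeded 0.1 in only 15 of 28 pairs in whole cells and 20 of 28 in the cytoplasm. The letters were the only source of this pairing. Fits with libraries paired by letter paired them within a fraction and not across fractions, also where fractions were compared.

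Named genes were, for SRSF3 and SRSF7 in each fraction, the up to 10 long-extension events with the largest change of the ratio past the threshold, else the smallest p. For each other protein they were the up to 3 with the largest called change in share. The 5 longest extensions, events called in opposite directions for SRSF3 and SRSF7, the targeted genes and those of Ctdspl2, Gsk3b and Smarcc1 that were members (only Gsk3b) were added. Names outside this rule are marked as chosen after their values were seen. An item that the rule also named is not reported here. The members and lists were chosen with earlier results of these data known.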

Additional observations from a re-analysis of the deposited data

Results flagged for a closer look

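The log2 change of the Samd8 extension-to-core ratio after SRSF3 knockdown was lower in the cytoplasm than in whole cells by −1.50 ± 0.33 (SE, limma interaction, adjusted p = 0.0349 over 197 tandem events). Relative extension coverage was 10.1% and 9.52% in SRSF3 knockdown cytoplasm and 48.1% and 43.4% in control cytoplasm, against 29.9% and 39.4% in SRSF3 knockdown and 48.7% and 65.0% in control whole cells. Both fractions fell. With libraries paired by letter no long-extension event passed this test, and none passed without either cytoplasmic SRSF3 knockdown library, without cytoplasmic control library A or without whole-cell control library A.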

How the results depend on the processing

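Of 357 alternatives for 32 named pairs of event and comparison, 326 kept the direction and the side of the threshold, 26 lost the call, 3 gained one and 2 changed sign. Both sign changes were Tpm2 in the cytoplasm with all other bins of the gene as reference (0.61 for SRSF3 and 0.53 for SRSF7 knockdown). The 3 gained ones were Smarce1, Ncaph2 and Abhd5 for SRSF7 knockdown in the cytoplasm with the replicate block. Counts below are of long-extension events changed in either direction, and the cause of each move was not tested. With the replicate block, the ratio counts were 10 (SRSF1), 3 (SRSF2), 1 (SRSF6) and 7 (SRSF7) in whole cells, 10 (SRSF1), 1 (SRSF6) and 5 (SRSF7) in the cytoplasm, and 0 for the SRSF3 interaction between fractions. For SRSF3 the block gave 35 in whole cells and 36 in the cytoplasm. The gene-level block counts were 244 for SRSF3 and 2 for SRSF7 in whole cells and 122 for SRSF3 in the cytoplasm. With only the 4 libraries compared the whole-cell ratio counts were 0 (SRSF1), 0 (SRSF3) and 6 (SRSF7), and the cytoplasmic SRSF1 count 0. For SRSF1 in whole cells a pseudocount of 5 and a mean of at least 100 each gave 6, and edgeR 8. edgeR gave 2 for SRSF2 and 6 for SRSF7 in whole cells. Bins of exactly the extension's width, which could test at most 20 events, gave 1 (SRSF2), 0 (SRSF3) and 0 (SRSF7) in whole cells and 1 (SRSF1), 1 (SRSF2) and 4 (SRSF3) in the cytoplasm. The same bins gave 2 in whole cells and 6 in the cytoplasm for SRSF3 against SRSF7 knockdown, 9 between control fractions and 2 for the interaction. All other bins of the gene as reference gave 2 for SRSF2 in the cytoplasm and 2 for the interaction.

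For the MISO shares, 10 points gave 15, 5, 75, 3, 2, 2 and 19 events for SRSF1 to SRSF7 in whole cells and 23, 18, 113, 14, 8, 16 and 22 in the cytoplasm. Without the condition on intervals the counts were 6 (SRSF1), 1 (SRSF2), 2 (SRSF4), 3 (SRSF5), 1 (SRSF6) and 1 (SRSF7) in whole cells and 7 (SRSF1), 5 (SRSF5) and 3 (SRSF6) in the cytoplasm. Leaving out each library in turn, the ratio counts ranged from 0 to 2 (SRSF1), 10 to 27 (SRSF3), 0 to 1 (SRSF6) and 0 to 1 (SRSF7) in whole cells. In the cytoplasm they ranged from 0 to 3 (SRSF1), 17 to 25 (SRSF3) and 0 to 1 (SRSF7). For SRSF3 against SRSF7 knockdown they ranged from 29 to 40 in whole cells and 30 to 38 in the cytoplasm, between control fractions from 15 to 23, and for the SRSF3 interaction from 0 to 2. Gene-level counts for SRSF3 ranged from 6 to 143 in whole cells and from 1 to 5 in the cytoplasm. Count models for the gene tables were not run, since their signal gave no whole reads. The 2 libraries a group limit every test, and low extension signal limits Arl4a, Glrx2 and Elmo2.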
